A study of Mus musculus with 12 samples.

Results

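Immunoglobulin transcripts were examined in RNA from sorted mouse CD4+ T cells. The members are the genes whose biotype in the deposited count table begins with IG_ and whose raw counts, summed over all 12 libraries, reached 20. This rule kept 93 of the 55487 genes in the table. Of these, 11 are constant region genes (of 13 listed), 73 are variable (V) segments (of 218), 8 are joining (J) segments (of 14) and 1 is a diversity (D) segment (of 19). No member is a pseudogene. By locus and role they are the mu and delta constant genes Ighm and Ighd, 5 switched heavy chain constant genes, 5 heavy D and J segments, 37 heavy V segments, the kappa constant gene Igkc, 4 kappa J segments, 34 kappa V segments, 3 lambda constant genes and 2 lambda V segments. They were thus chosen by biotype and by summed raw counts, not by a comparison between groups, although the set was proposed with earlier results of these data known. At its edge, Ighv2-9, Ighv4-1, Ighv7-3 and Igkv8-28 entered with 20 counts each, and Igkv8-19, Ighv2-5, Ighv1-26 and the pseudogene Ighv1-62 stayed out with 19. Counts were unevenly spread, with 90.0% of all member counts in Ighm, 20 members at 100 counts or more and 73 at 20 to 99.

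An antibody is built from heavy and light chains. In B cells, V, D and J segments of the heavy chain locus and V and J segments of the kappa or lambda light chain locus are joined by recombination, and the joined exon is spliced to a constant region. Class switching later replaces mu and delta with a gamma, epsilon or alpha constant region, which gives the IgG, IgE and IgA classes, and plasma cells secrete the product in large amounts. T cells rearrange T cell receptor genes instead, but constant regions of unrearranged immunoglobulin loci can be transcribed from promoters and enhancers that lie next to them, and such germline transcripts of the mu region are known in lymphocytes, T cells included.

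The cells came from spleen and peripheral lymph nodes of wild-type (WT) mice and of mice without Rinl (KO), and the series asks what Rinl, a Ras and Rab interactor-like protein that activates small GTPases of the RAB5 kind, does in CD4+ T cells. Naive cells were sorted as CD62L+ and CD44 low, and effector cells as CD62L- and CD44 high, with no treatment named in either case. Each of the 4 groups has 3 libraries, numbered by their columns as 1 to 3 (WT naive), 4 to 6 (WT effector), 7 to 9 (KO naive) and 10 to 12 (KO effector). No source used here gives the strain, age or sex of the mice, the design of the deleted allele or any pooling of animals. Whether replicate libraries stem from different mice is not stated either, so p-values measure the spread between these libraries, which may be technical. Total counts ran from 11606251 to 24320247, and the KO naive libraries (20072199 to 24320247) were all deeper than the WT naive libraries (12409965 to 19584111). Rinl was at 285 to 299 normalised counts-per-million units (CPM) in WT naive and 437 to 463 CPM in WT effector libraries, against 32.2 to 34.4 and 45.8 to 49.4 CPM in the KO libraries. Cd4 lay between 935 and 1059.5 CPM and Cd3e between 434 and 558 CPM in every library, so the defining T cell markers were present throughout. Of the B cell markers, Ms4a1 (CD20) was at 0 to 1.19 CPM and Cd79a at 0.553 to 1.45 CPM. Other genes of the B cell list lay both higher and lower. Cd79b was at 0.526 to 2.46 CPM in naive and 6.76 to 10.98 CPM in effector libraries. In the same order Cd22 was at 0.105 to 0.717 and 10.6 to 22.3 CPM, and Cd72 at 19.8 to 29.7 and 25.2 to 31.4 CPM. Over all libraries Ebf1 was at 0 to 0.256 CPM, Vpreb3 at 0 to 0.0838 CPM and Fcrla at 0 to 0.448 CPM.

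The J segments are shown first because the heavy ones separate naive from effector cells and the kappa ones follow another order. A J segment is a short stretch that encodes the end of the variable domain, and its reading frame holds a tryptophan (heavy) or phenylalanine (light) followed by Gly-X-Gly. The capitals mark the stretch that encodes this motif, searched as TGGGGNNNNGG in the heavy and TTCGGNNNNGG in the kappa segments. Among the first 54 bases of 141647 mouse transcripts, 1.02% held the heavy and 0.243% the kappa form on the sense strand, and 1.71% and 0.429% on either strand. The sequences are those of the GENCODE M21 transcripts (GRCm38), 5′ to 3′, and the coordinates are the extent of each gene, which for Ighj2, Igkj2 and Igkj5 is longer than the transcript shown. The heavy segments lie on chromosome 12, minus strand, and the kappa segments on chromosome 6, plus strand.
Ighd4-1 (chr12:113430528-113430538): ctaactgggac
Ighj1 (chr12:113429781-113429833): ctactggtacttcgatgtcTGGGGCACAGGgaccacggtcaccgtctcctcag
Ighj2 (chr12:113429468-113429567): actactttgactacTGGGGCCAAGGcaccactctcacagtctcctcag
Ighj3 (chr12:113429085-113429132): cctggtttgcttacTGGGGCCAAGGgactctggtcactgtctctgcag
Ighj4 (chr12:113428514-113428567): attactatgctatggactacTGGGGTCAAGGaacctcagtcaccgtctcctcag
Igkj1 (chr6:70722562-70722599): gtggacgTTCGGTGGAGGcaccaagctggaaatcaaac
Igkj2 (chr6:70722916-70722958): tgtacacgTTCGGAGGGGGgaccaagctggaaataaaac
Igkj4 (chr6:70723548-70723585): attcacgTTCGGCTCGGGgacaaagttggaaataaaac
Igkj5 (chr6:70723886-70723927): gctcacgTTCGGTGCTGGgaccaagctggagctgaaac

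These 8 segments are the only J members, and the third kappa J segment is not among them. Ighd4-1, Ighj1, Ighj2, Ighj3 and Ighj4 form a run that lies 7.80, 7.05, 6.74, 6.36 and 5.78 kb upstream of Ighm (chr12:113418558-113422730, minus strand), and Ighd lies 2.23 kb downstream of it. Further downstream on the same strand come Ighg3 (57.3 kb), Ighg1 (88.0 kb), Ighg2b (111 kb), Ighg2c (130 kb) and Igha (158 kb).

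The mu end of the heavy chain locus carried nearly all immunoglobulin counts, and its level differed between naive and effector cells more than between genotypes. Ighm, the constant region of IgM, was at 598, 618 and 584 CPM in the WT naive libraries, 588, 534 and 541 CPM in KO naive, 1065, 887 and 939.8 CPM in WT effector and 1118, 1269.7 and 1042 CPM in KO effector. All effector libraries lay above all naive libraries. In bulk RNA, fewer cells of a type and less RNA per cell cannot be told apart. Between genotypes, the libraries overlapped in both cell types. By the quasi-likelihood test of edgeR, with Benjamini-Hochberg adjustment over the 15905 genes tested, Ighm rose from naive to effector cells by 0.68 ± 0.07 on the log2 scale (± SE, n = 3 per group) in WT (adjusted p = 2.8e-07) and by 1.04 ± 0.07 in KO (adjusted p = 9.3e-10). For KO against WT it differed by -0.11 ± 0.07 in naive cells (adjusted p = 0.59) and by 0.25 ± 0.07 in effector cells (adjusted p = 0.074), and neither passed. The difference between these genotype differences was 0.36 ± 0.10 (edgeR adjusted p = 0.23). Without library 4 that difference was 0.44 with an adjusted p of 0.025, and without library 4 or 12 the effector difference passed as well, at 0.33 and 0.31 (adjusted p = 0.0063 and 0.022). With all 12 libraries, the effector difference passed with DESeq2 (0.25, adjusted p = 0.018). With no filter on low counts, both passed in edgeR (effector 1.4e-05, difference of differences 5.9e-05). In all, the effector difference passed in 4 of 18 alternatives and the difference of differences in 2 of 17.

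Per length, Ighm was also the most abundant constant gene. Its level was 350 ± 9.25 FPKM (SD, n = 3) in WT naive, 325 ± 17.5 in KO naive, 564 ± 54.5 in WT effector and 670.3 ± 67.8 in KO effector libraries. Igkc, the light chain constant gene with the highest counts, was at 10.9 ± 10.7, 57.5 ± 8.97, 44.5 ± 13.6 and 110.2 ± 18.02 FPKM in the same order. Ighd reached 1.56 ± 0.597, 1.28 ± 0.0963, 7.08 ± 1.43 and 10.3 ± 1.99 FPKM. By this scale the mu constant region was above the kappa constant region in every group. Which cells this RNA came from was not tested.

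Ighd, the constant region of IgD, followed the same order at a lower level. It was at 2.42, 2.04 and 4.06 CPM in WT naive, 2.16, 2.51 and 2.31 in KO naive, 14.7, 9.92 and 14.0 in WT effector and 17.2, 22.7 and 15.9 in KO effector libraries. The naive libraries of both genotypes overlapped, and each effector library was above each naive library. Ighd rose from naive to effector cells by 2.26 ± 0.22 (log2, SE, n = 3 per group) in WT and by 3.01 ± 0.20 in KO (edgeR adjusted p = 1.7e-07 and 1.3e-09). In effector cells its 3 KO libraries were above the 3 WT libraries, by 0.54 ± 0.17 (adjusted p = 0.10), which did not pass. It passed without library 3 (0.53, adjusted p = 0.045). Per 100 Ighm counts, Ighd had 0.477 ± 0.193 (SD, n = 3) in WT naive, 0.421 ± 0.0516 in KO naive, 1.33 ± 0.190 in WT effector and 1.62 ± 0.148 in KO effector libraries, so delta counts were higher in effector cells relative to mu counts too.

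The heavy J segments, named here after their values were seen, separated naive from effector cells widely. Ighj1 was at 0.316, 0.269 and 0.249 CPM in WT naive and 0.173, 0.255 and 0.666 CPM in KO naive libraries, against 6.57, 4.78 and 5.87 CPM in WT effector and 6.44, 9.92 and 6.20 CPM in KO effector libraries. For Ighj2, Ighj3 and Ighj4 too the naive libraries, between 0 and 0.498 CPM, were below the effector libraries, between 1.07 and 4.41 CPM. All 4 segments rose in both genotypes, where 30.2% of all tested genes rose in WT and 31.6% in KO. In WT the rises were 4.32 ± 0.35, 3.76 ± 0.58, 3.15 ± 0.47 and 4.49 ± 0.53 on the log2 scale for Ighj1 to Ighj4 (SE, n = 3 per group, edgeR adjusted p from 3.8e-10 to 2.2e-05). In KO they were 4.43 ± 0.30, 3.47 ± 0.43, 4.77 ± 0.41 and 3.84 ± 0.40 (adjusted p from 1.5e-11 to 1.4e-06). Ighd4-1 had 1 count in the 6 naive libraries together and 0.296 to 1.06 CPM in the 6 effector libraries. It was below the filter on low counts and was not tested. The 5 segments together gave 0.749 ± 0.291 and 0.981 ± 0.215 CPM (SD, n = 3) in WT and KO naive cells and 11.9 ± 2.47 and 17.5 ± 4.22 CPM in WT and KO effector cells.

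Relative to Ighm, the J segments were also higher in effector cells. The 4 segments had 1.23 ± 0.538 (SD, n = 3) and 1.78 ± 0.433 counts per 1000 Ighm counts in WT and KO naive libraries, and 11.8 ± 1.70 and 14.6 ± 1.86 in WT and KO effector libraries. The highest naive library reached 2.27 and the lowest effector library 9.84. By genotype, Ighj3 alone passed in effector cells, at 1.07 to 2.21 CPM in WT and 2.51 to 3.71 CPM in KO, a rise of 1.05 ± 0.28 (log2, edgeR adjusted p = 0.036). That call was lost without library 5, 6, 9 or 11 (0.85 to 1.05, adjusted p = 0.051 to 0.25), with DESeq2 and in the FPKM values (adjusted p = 0.14 in both), and when only the effector groups were fitted (0.089).

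**Figure D1:**
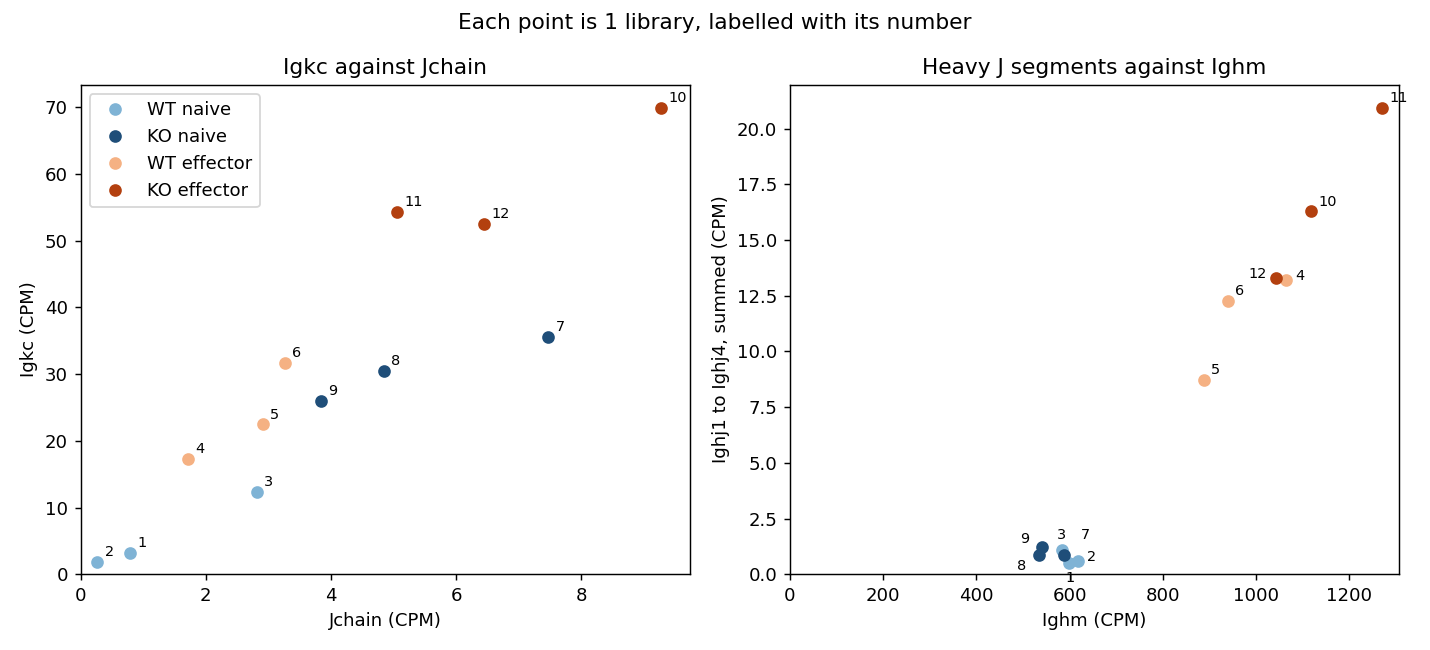
Igkc against Jchain (left) and the summed heavy J segments against Ighm (right), in CPM on linear axes, with 1 point per library labelled by its number. On the right the 6 naive libraries sit together at 0.526 to 1.23 CPM of J segments and the 6 effector libraries at 8.73 to 20.9 CPM, while on the left libraries 1 and 2 are the lowest and library 10 the highest for both genes.

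The switched heavy chain constant genes encode the IgA and IgG classes. Ighg2b and Ighg2c are close in sequence and Ighg1 and Ighg3 less so, and the first 60 bases of the annotated transcripts are shown so that the reader can see how far reads of the IgG genes can be told apart. Capitals mark bases that differ from Ighg2c at the same position, counted from the 5′ end with no gaps, in GENCODE M21 transcripts (GRCm38, chromosome 12, minus strand). Ighg2b differs at 5 of the 60 positions (91.7% identical), and Ighg1 and Ighg3 at 14 each (76.7%).
Ighg2c: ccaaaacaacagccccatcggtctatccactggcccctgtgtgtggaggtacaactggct
Ighg2b: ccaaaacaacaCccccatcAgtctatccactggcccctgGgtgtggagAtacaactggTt
Ighg1: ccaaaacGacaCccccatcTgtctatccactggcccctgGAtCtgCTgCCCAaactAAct
Ighg3: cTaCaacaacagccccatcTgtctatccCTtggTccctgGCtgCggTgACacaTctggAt

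Over their whole length, 5.49% of the 50-base windows of Ighg2c also occur in another gene's transcripts, mostly those of Ighg2b, and 4.15% of those of Ighg2b. Ighm, Ighd, Igha and Igkc share none. No source used here says how the authors' counting treated reads that match more than 1 gene, so values of the 4 IgG genes are uncertain to that extent.

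Ighg2c, the constant region of IgG2c (chr12:113285325-113288932), was the switched gene that passed between genotypes in both cell types. It was at 0.263, 0 and 0.0829 CPM in WT naive, 2.55, 5.44 and 8.09 CPM in KO naive, 0.369, 0.597 and 1.30 CPM in WT effector and 5.68, 5.15 and 11.9 CPM in KO effector libraries. The KO libraries were above the WT libraries in each cell type, with no overlap. It rose by 5.38 ± 0.97 (log2, SE, n = 3 per group) in naive and 3.23 ± 0.67 in effector KO cells (edgeR adjusted p = 0.038 and 0.039). The counts behind the WT naive value were 5, 0 and 1. The calls were not stable. In naive cells the call was lost without any of libraries 1 to 6 or 8 to 10 (4.74 to 7.07, adjusted p = 0.053 to 0.19), with limma-voom (0.20) and with only the naive groups (0.092). In effector cells it was lost without any of libraries 1 to 6, 8, 10 or 11 (2.88 to 3.93, adjusted p = 0.055 to 0.16), with limma-voom (0.13) and with no filter on low counts (0.05). Over all 18 alternatives the adjusted p ran from 6.3e-07 to 0.20 in naive and from 0.00032 to 0.16 in effector cells, and the direction stayed the same.

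Ighg2b, of IgG2b, had the same order without passing. Its libraries were at 0.0526, 0.537 and 0.663 CPM in WT naive, 2.504, 4.80 and 7.58 in KO naive, 0.123, 0.298 and 2.73 in WT effector and 10.4, 11.99 and 5.11 in KO effector cells. KO and WT libraries did not overlap in either cell type. The differences were 3.65 ± 1.02 in naive and 3.08 ± 0.79 in effector cells (log2, edgeR adjusted p = 0.18 and 0.086). Without library 6, the highest of the WT effector libraries, the effector difference was 5.495 and passed (adjusted p = 0.042), and it also passed in the FPKM values (1.71, adjusted p = 0.027).

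Igha, of IgA, had the highest counts of the switched genes. It was at 0.316, 0.430 and 4.73 CPM in WT naive, 17.7, 15.8 and 9.89 in KO naive, 6.02, 12.8 and 15.7 in WT effector and 25.5, 10.3 and 17.0 in KO effector libraries. Library 3 stood above the other WT naive libraries. The naive groups did not overlap (3.31 ± 0.81, log2, edgeR adjusted p = 0.13) and the effector groups did (0.60 ± 0.57, adjusted p = 0.68). Between the cell types Igha rose in WT by 2.96 ± 0.85 (adjusted p = 0.016), a call lost without library 1, 2 or 6 (2.39, 2.45 and 2.64, adjusted p = 0.063, 0.063 and 0.056) and with only the WT groups (0.066). In naive cells the difference passed with DESeq2 (3.01, adjusted p = 0.047).

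Ighg3 and Ighg1, of IgG3 and IgG1, did not share this order. Ighg3 had 1 count in each WT naive library and was at 2.55, 0 and 0.256 CPM in KO naive, 2.33, 1.64 and 2.02 in WT effector and 3.65, 2.41 and 2.18 in KO effector libraries. It rose from naive to effector cells in WT by 4.90 ± 1.57 (log2, edgeR adjusted p = 0.025). The call was lost without library 1, 2, 3, 4 or 6 (4.78 to 5.07, adjusted p = 0.054 to 0.081). In KO, where library 7 held nearly all naive counts, the change was 1.53 ± 0.82 (adjusted p = 0.14) and without library 7 it was 4.47 (adjusted p = 2.4e-07). Ighg1 was the only member whose WT naive libraries (0.316, 0.752 and 0.332 CPM) were all above the KO naive libraries (0.130, 0 and 0 CPM), with a difference of -3.22 ± 1.89 (adjusted p = 0.58). In effector cells 49 of its 55 WT counts were in library 6.

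The make-up of the switched genes varied between libraries. Igha gave 31.6%, 24.2% and 80.3% of switched counts in the WT naive libraries, 69.7%, 60.6% and 38.3% in KO naive, 67.6%, 81.4% and 63.7% in WT effector and 56.2%, 33.3% and 45.9% in KO effector libraries. Ighg2b and Ighg2c together gave 5.52%, 5.71% and 16.3% in WT effector and 35.4%, 55.4% and 45.9% in KO effector libraries, which did not overlap. In naive libraries they gave 31.6%, 30.3% and 12.7% in WT and 19.8%, 39.4% and 60.7% in KO, which did. The WT naive shares rest on 19, 33 and 71 switched counts.

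**Figure D2:**
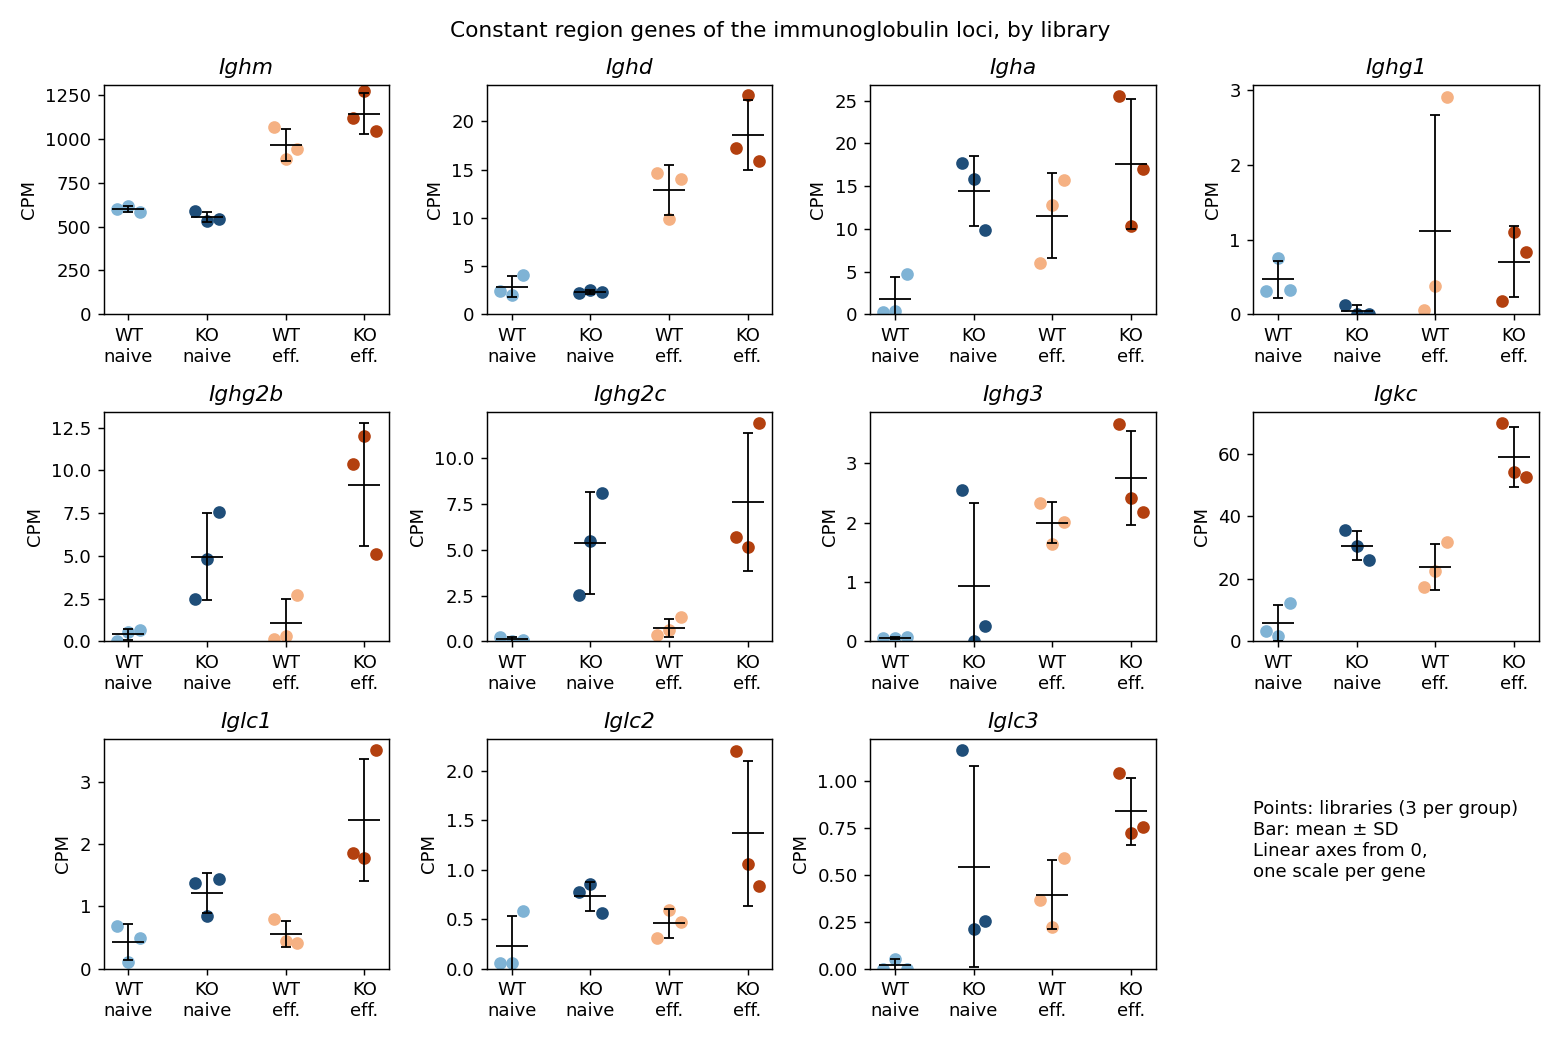
The 11 constant region members in CPM on linear axes from 0, each on its own scale, with 1 point per library and the mean ± SD of the 3 libraries of each group. Ighm and Ighd separate all naive from all effector libraries. Igkc, Iglc1, Iglc3, Ighg2b and Ighg2c have every KO library above every WT library of the same cell type. The patterns are not exclusive. Within each genotype the effector libraries of Igkc are above its naive libraries. In effector cells the KO libraries of Ighd are above its WT libraries.

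Light chain constant genes had the KO libraries on top in both cell types, apart from Iglc2 in naive cells, where 1 WT library overlapped. Igkc, the constant region of kappa chains (chr6:70726435-70726966), was at 3.21, 1.88 and 12.4 CPM in WT naive, 35.6, 30.5 and 26.0 in KO naive, 17.3, 22.5 and 31.7 in WT effector and 69.9, 54.3 and 52.5 in KO effector libraries. Neither cell type had overlap between genotypes, and within WT naive library 3 was above libraries 1 and 2. The differences for KO against WT were 2.60 ± 0.50 in naive and 1.30 ± 0.38 in effector cells (log2, SE, n = 3 per group, edgeR adjusted p = 0.058 and 0.13), and neither passed. Without library 3 both passed, at 3.60 (adjusted p = 0.0096) and 1.30 (0.033). In naive cells the difference also passed with DESeq2 (2.42, adjusted p = 0.0055) and limma-voom (3.05, adjusted p = 0.047). The difference between the genotype differences was -1.30 ± 0.65 (adjusted p = 0.61). Igkc rose from naive to effector cells in WT by 2.24 ± 0.53 (adjusted p = 0.0061), which did not pass with only the WT groups fitted (2.22, adjusted p = 0.058). In KO the change of 0.94 ± 0.36 had an adjusted p of 0.05 and did not pass. It passed without library 2 or 3 (0.93 in both, adjusted p = 0.039 and 0.0074), with limma-voom (0.014) and with only the KO groups (0.0014).

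Of the lambda constant genes, Iglc1 was at 0.684, 0.107 and 0.498 CPM in WT naive, 1.38, 0.850 and 1.43 in KO naive, 0.799, 0.448 and 0.415 in WT effector and 1.86, 1.78 and 3.52 in KO effector libraries. It rose in effector KO cells by 2.02 ± 0.41 (log2, edgeR adjusted p = 0.007), a call lost without library 6 (1.83, adjusted p = 0.053) and kept under the other 17 alternatives. In naive cells the 1.50 ± 0.45 difference did not pass (adjusted p = 0.13). Iglc3 had 0, 1 and 0 counts in WT naive and 27, 5 and 5 in KO naive libraries, and rose by 4.37 ± 1.05 (adjusted p = 0.041). That call was lost without library 1, 2, 3, 7 or 12 (3.14 to 6.32, adjusted p = 0.054 to 0.23) and in the FPKM values (0.24). Iglc2 differed by 1.96 ± 0.62 in naive and 1.61 ± 0.49 in effector cells without passing (adjusted p = 0.15 and 0.078). Both passed without library 3 (3.64 and 1.60, adjusted p = 0.021 and 0.039) and with no filter on low counts (adjusted p = 0.012 and 0.0037). Iglc1 shares no 50-base window with another gene, while Iglc2 and Iglc3 share 7.65% and 10.7% with each other.

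Lambda made up a small part of light chain constant counts in every group. Its share was 12.3% ± 5.61 (SD, n = 3) in WT naive, 7.47% ± 1.39 in KO naive, 5.88% ± 1.75 in WT effector and 7.27% ± 1.42 in KO effector libraries. The WT naive libraries (8.02% to 18.7%) were above the WT effector libraries (4.46% to 7.84%), and the other pairs of groups overlapped. The WT naive share rests on 31 lambda counts (14, 4 and 13 by library).

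The kappa J segments, also named after their values were seen, followed Igkc rather than the heavy J segments. Summed over the 4 segments, kappa J counts gave 0.226 ± 0.181 CPM (SD, n = 3) in WT naive, 1.19 ± 0.689 in KO naive, 0.787 ± 0.382 in WT effector and 2.46 ± 0.640 in KO effector libraries. In effector cells the KO libraries were above the WT libraries for all 4 segments, and in naive cells for Igkj2, Igkj4 and Igkj5. Among all genes with 20 counts or more, 8.69% in effector and 9.98% in naive cells were placed in this way. Only Igkj5 reached the filter. It differed by 3.13 ± 0.82 in naive and 1.26 ± 0.61 in effector cells (log2, edgeR adjusted p = 0.063 and 0.31).

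Kappa V segments, which encode most of the antigen-binding domain of the light chain, were each low. Igkv5-39, the kappa V segment with the most counts (280), was at 0.210, 0 and 0.829 CPM in WT naive, 2.12, 1.15 and 1.64 in KO naive, 0.430, 0.0746 and 1.60 in WT effector and 3.19, 2.26 and 1.76 in KO effector libraries. KO and WT libraries did not overlap, and the differences of 2.48 ± 0.85 and 1.71 ± 0.69 did not pass (log2, edgeR adjusted p = 0.26 and 0.25). Igkv1-117 and Igkv1-110 came next (220 and 214 counts). Of their 50-base windows, 49.9% and 50.9% occur in other genes, mostly in each other, so they cannot be separated well. Neither passed between genotypes in either cell type (adjusted p = 0.12 to 0.98). Igkv14-111 (83 counts) did not pass either (adjusted p = 0.52 and 0.33).

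The kappa V segments that rose in KO cells were Igkv10-96 and Igkv9-120 among effector and Igkv6-15 and Igkv8-27 among naive cells, and none of them passed for the difference between cell types (edgeR adjusted p = 0.70, 0.94, 1 and 0.81). Igkv10-96 had 1, 2 and 4 counts in WT effector and 24, 32 and 30 in KO effector libraries, or 0.149 ± 0.0884 against 1.82 ± 0.609 CPM (SD, n = 3). It rose by 3.49 ± 0.62 (log2, SE, edgeR adjusted p = 0.003) and passed under all 17 alternatives run for it. Igkv9-120 had 0, 1 and 0 counts in WT effector and 17, 16 and 7 in KO effector libraries, rose by 4.81 ± 0.88 (adjusted p = 0.0028) and passed under all 16. Settings that gave a segment no adjusted p are not among these, and both segments reached the filter on low counts mainly through KO libraries. Of their windows 32.6% and 25.3% occur in other genes. In naive cells Igkv6-15 had 2, 1 and 0 counts in WT and 20, 12 and 12 in KO libraries and rose by 3.32 ± 0.73 (adjusted p = 0.023). The call was lost without library 1, 2, 3, 7, 8 or 9 (2.96 to 4.09, adjusted p = 0.05 to 0.13) and in the FPKM values (0.063). Igkv8-27 had no count in WT naive and 34, 20 and 6 counts in KO naive libraries. Against a floor of 3 counts over the WT naive group (0.0604 CPM), it was at least 14.5-fold higher in KO (adjusted p = 0.026). That call was lost without library 1, 2, 3, 6, 7 or 8 (adjusted p = 0.053 to 0.11) and in the FPKM values (0.11).

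Heavy V segments did not pass between genotypes. Only 3 of 37 reached the filter, the members with the most counts. Ighv1-81 (131 counts) was at 0, 0 and 0.415 CPM in WT naive, 1.21, 1.32 and 0.102 in KO naive, 0.614, 1.04 and 0.534 in WT effector and 0.696, 0.578 and 0.670 in KO effector libraries. It rose from naive to effector cells in WT by 2.72 ± 1.06 (log2, edgeR adjusted p = 0.043), which was lost without any of libraries 1, 2, 4 to 6 or 10 to 12 (2.06 to 2.91, adjusted p = 0.058 to 0.14). Ighv5-9-1 had 98 counts, none of them in WT effector cells and 30 and 25 of them in KO naive libraries 8 and 9. Ighv9-3 had 91 counts, 38 of them in KO effector library 10 and 24 in KO naive library 7. Ighv5-17 and Ighv3-6 (62 and 58 counts) were below the filter. Both lambda V segments were tested. Iglv1 was at 0 to 0.534 CPM in WT and 0.170 to 1.64 CPM in KO libraries and Iglv2 at 0 to 0.593 and 0.251 to 1.16 CPM. Their differences between genotypes did not pass (0.75 to 2.49, adjusted p = 0.15 to 0.57).

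**Figure D3:**
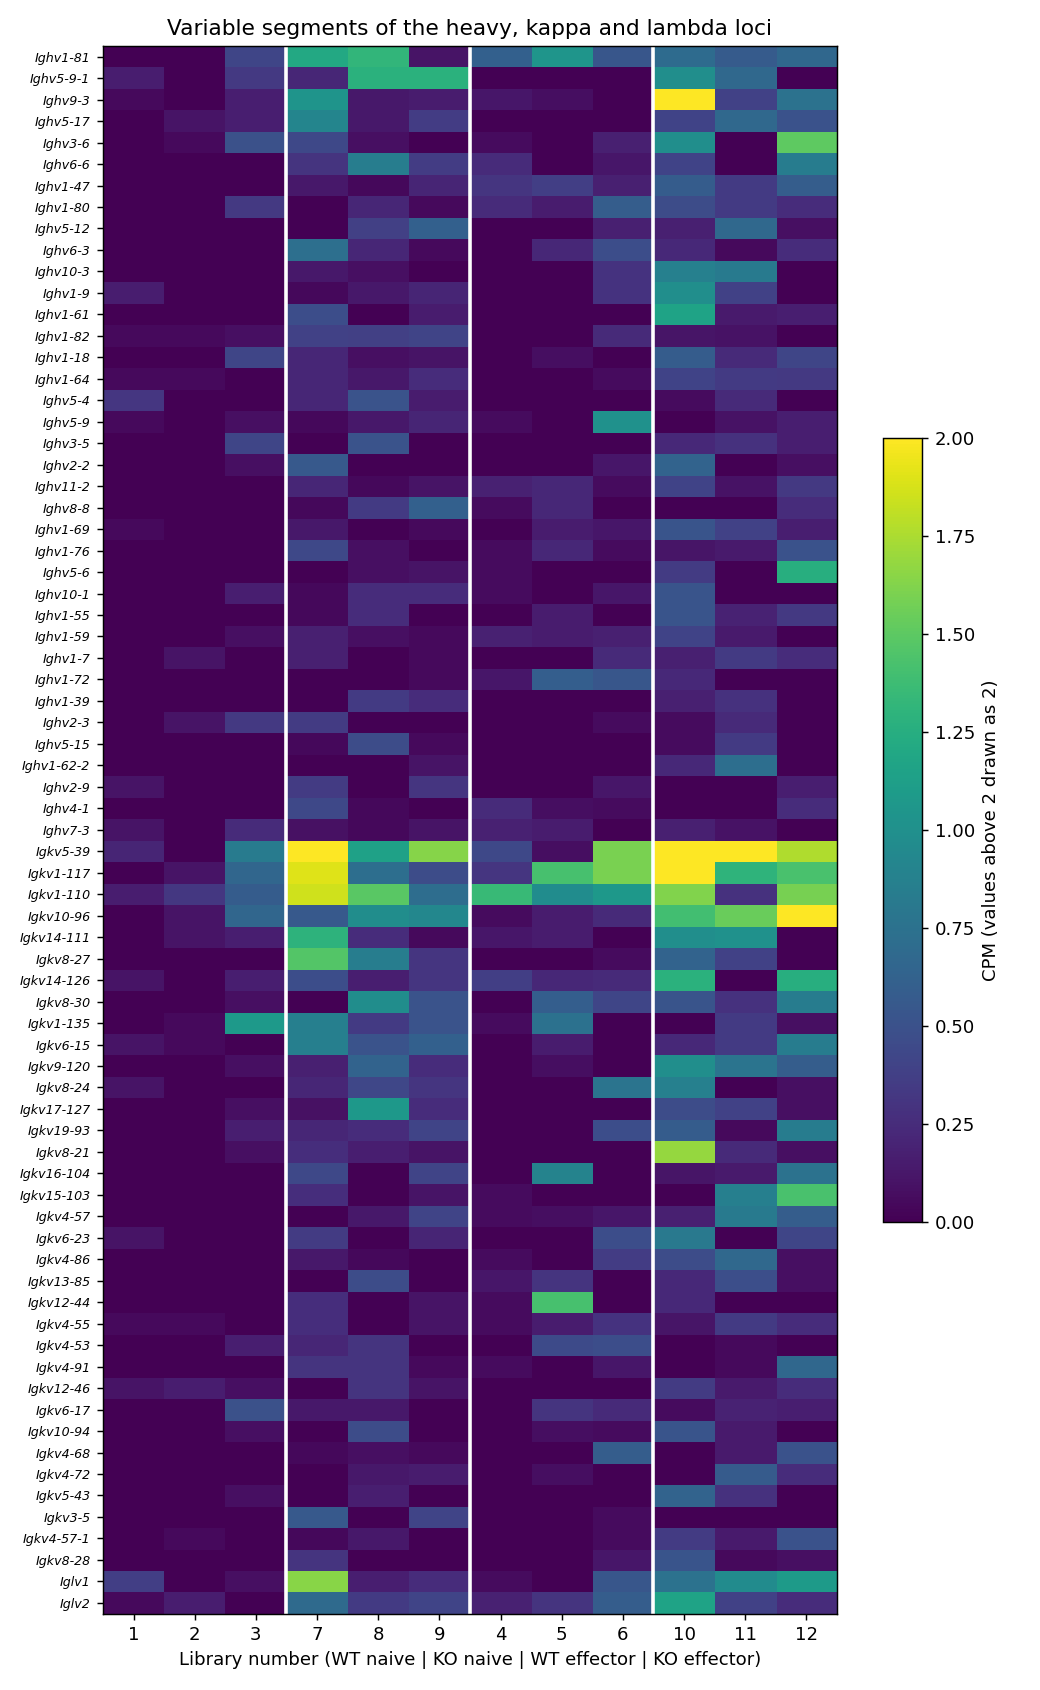
CPM of the 73 variable segments (rows, heavy then kappa then lambda, each ordered by summed counts) in the 12 libraries (columns), with values above 2 CPM drawn at the top of the colour scale. The 6 KO libraries hold counts over many rows, and WT naive libraries 1 and 2 are close to 0 in nearly all.

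Counts in heavy and kappa V segments were spread over many segments. Of the 115 heavy V genes in the table, members or not, 16, 9 and 22 had a count in WT naive libraries 1 to 3, 58, 49 and 56 in KO naive, 28, 25 and 38 in WT effector and 65, 51 and 46 in KO effector libraries. The counts behind these numbers were 30, 13 and 60, then 312, 259 and 185, then 65, 73 and 128, and then 385, 261 and 166. No heavy or kappa V segment dominated a KO library: the leading heavy segment held 6.51% (library 11, Ighv10-3, exact 95% interval 3.84% to 10.2%) to 13.5% (library 9, Ighv5-9-1, 8.94% to 19.3%) of heavy V counts. Of only 3 lambda V genes in the table, the leading one held 54.1% (library 10, Iglv2) to 81.25% (library 12, Iglv1) of lambda V counts in KO libraries. The leading kappa segment held 10.7% (library 8, Igkv1-110, 7.55% to 14.5%) to 13.3% (library 9, Igkv5-39, 9.26% to 18.2%) of kappa V counts in the KO libraries. In WT libraries it held 14.8% to 30.6%, from fewer counts. The intervals cover counting error only. The leading heavy segment changed from library to library, with Ighv1-81 first in 4 of 12, while Igkv5-39 led the kappa segments in 4 of the 6 KO libraries. Numbers of segments detected move with depth as well as with level. Heavy V levels, which are scaled for depth, were 1.58, 0.698 and 4.98 CPM in WT naive against 13.5, 11.01 and 9.48 CPM in KO naive libraries, and 3.99, 5.45 and 7.59 against 22.3, 12.6 and 13.9 CPM in effector libraries.

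Taken over all members other than Ighm, the summed level ordered the groups as Igkc did. It was 17.7 ± 14.4 CPM (SD, n = 3) in WT naive, 85.6 ± 10.8 in KO naive, 78.9 ± 20.4 in WT effector and 171 ± 22.7 in KO effector libraries. The ranges were 8.27 to 34.3, 75.6 to 97.1, 63.4 to 101.9 and 155.9 to 197 CPM, so KO and WT libraries did not overlap in either cell type. With Ighm included the summed level was 617 ± 8.54 and 640.2 ± 39.3 CPM in WT and KO naive cells, and 1043 ± 84.9 and 1315 ± 116 CPM in WT and KO effector cells, since Ighm outweighs the rest.

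**Figure D4:**
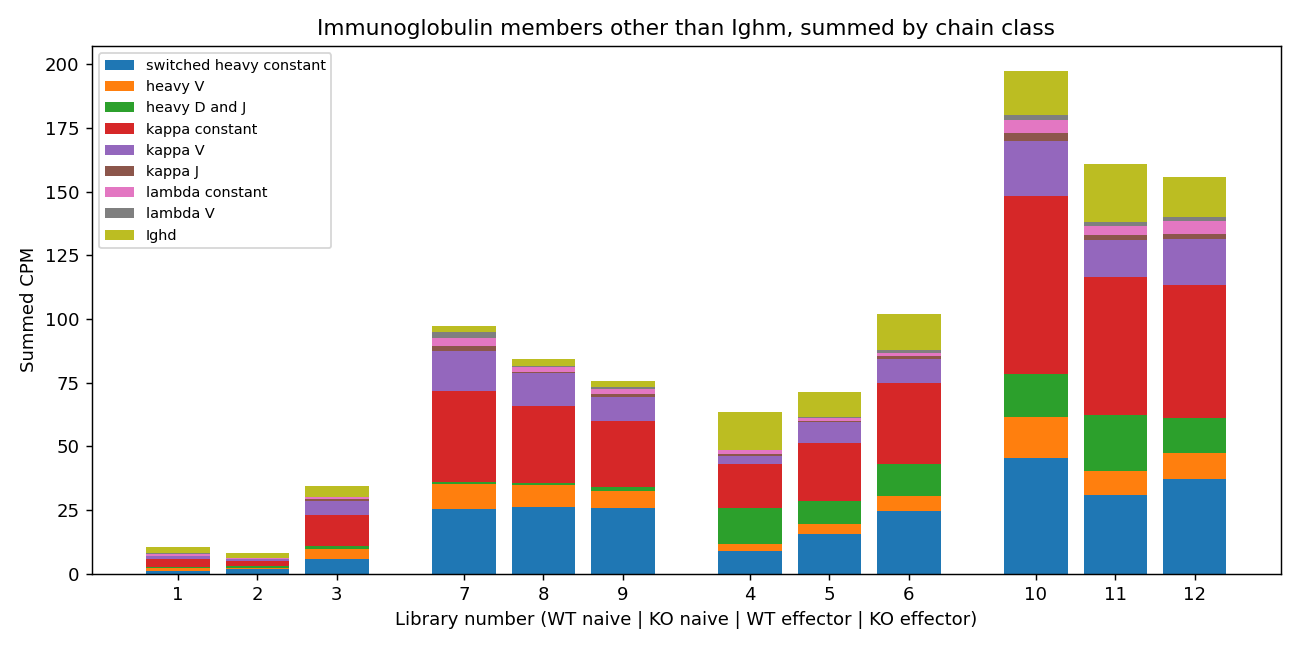
Summed CPM of the members other than Ighm in each library, stacked by chain class on a linear axis from 0. WT naive libraries 1 and 2 are the lowest and library 3 totals 34.3 CPM, and the block of heavy D and J segments is wide in the 6 effector libraries and hardly visible in the 6 naive libraries.

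Counted over the members, 31 of 93 reached the filter on low counts (all 11 constant genes, 5 J and 15 V segments). A member with few counts reaches that filter mainly through the group in which it is high, so counts and medians over the 31 are given as a description. In naive cells 4 of the 31 passed for KO against WT, all higher in KO, where 0.679% of all tested genes were higher and 1.18% passed in either direction. They were Ighg2c, Iglc3, Igkv6-15 and Igkv8-27. In effector cells 5 passed, all higher in KO, against a background of 1.45% higher and 3.16% in either direction. They were Ighg2c, Iglc1, Igkv10-96, Igkv9-120 and Ighj3. The median log2 difference was 2.49 over the tested members in naive and 1.05 in effector cells, against 0 over all tested genes in naive and 0.0022 in effector cells. Ighm and Ighd had differences below 0 in naive cells, as did Ighj3 and Ighg1.

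Non-overlap of libraries was counted over all 93 members, without the filter on low counts. A member with few counts can still reach the minimum of 20 summed counts mainly through the group in which it is high. These counts are therefore a description as well. In naive cells all 3 KO libraries were above all 3 WT libraries for 30 members and below for 1 (Ighg1), where the shares among the 19082 genes with 20 counts or more were 9.98% and 8.9%. The 30 comprised 12 of 34 kappa V segments, 8 of 37 heavy V segments, 3 of 4 kappa J segments, 3 of 5 switched constant genes, 2 of 3 lambda constant genes, Igkc and Iglv2, and none of Ighm, Ighd and the heavy D and J segments. In effector cells the KO libraries were above for 30 members and below for 0, with shares of 8.69% and 8.21% among all genes. These were 9 kappa V segments, 8 heavy V segments, all 4 kappa J segments, all 3 lambda constant genes, Ighg2b, Ighg2c, Igkc, Iglv1, Ighd and Ighj3. In both cell types 14 of the 93 members were above, where 360 of the 19082 genes (1.89%) were above in both. The 14 are 46.7% of either list of 30 members. Over all genes, those 360 come from 1905 genes above in naive and 1658 above in effector cells. The 14 include Ighg2b, Ighg2c, Igkc, Iglc1, Iglc3, Igkj2, Igkj4, Igkj5, Ighv1-64, Igkv5-39, Igkv6-15 and Igkv9-120.

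No member passed for the difference between the genotype differences of effector and naive cells (edgeR, 0 of 31, where 0.145% of all tested genes passed). Of the 31, 6 had an unadjusted p under 0.05: Ighm (0.36) and Ighd (0.76) were positive, and Ighv1-81, Igkv1-110, Iglc3 and Igha were negative (-3.22, -2.11, -3.33 and -2.70). DESeq2 and limma-voom also called 0, leaving out library 4 gave 1 (Ighm), and with no filter on low counts the test called 5 members.

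From naive to effector cells 13 of the 31 tested members rose in WT and 9 in KO, and none fell, where 30.2% and 31.6% of all tested genes rose (56.2% and 58.4% passed in either direction). Ighm, Ighd and Ighj1 to Ighj4 rose in both genotypes. In WT the others were Igha, Ighg3, Igkc, Iglc3, Iglv2, Igkv1-110 and Ighv1-81, and in KO they were Iglc1, Igkv10-96 and Igkv9-120. Whether these further members differ between genotypes is given by the difference test above, which none passed. The calls of Ighm, Ighd and the 4 J segments, and that of Iglc3 in WT (3.93 ± 1.17, log2, edgeR adjusted p = 0.0066), held under every alternative run for them. The other calls were each lost under 1 alternative or more. In WT, Iglv2 (2.09 ± 0.88, log2, edgeR adjusted p = 0.047) lost its call without library 1, 3, 5, 6, 8 or 9 (1.48 to 2.19, adjusted p = 0.053 to 0.25), and Igkv1-110 (1.78 ± 0.63, adjusted p = 0.024) without library 1, 2, 4 or 6 (1.39 to 1.83, adjusted p = 0.053 to 0.11). In KO, Iglc1 (0.91 ± 0.34, adjusted p = 0.024) lost it without library 8 or 12 (0.69 and 0.58, adjusted p = 0.12 and 0.16). Igkv10-96 (1.10 ± 0.41, adjusted p = 0.028) lost it without library 7, 9 or 12 (0.84 to 1.17, adjusted p = 0.054 to 0.13). Igkv9-120, whose libraries overlapped (1.13 ± 0.47, adjusted p = 0.044), lost it without any of libraries 1 to 3, 7 or 9 to 11 (0.77 to 1.15, adjusted p = 0.051 to 0.21). By library, 25 members were higher in all 3 effector than all 3 naive libraries in WT (1 lower) and 20 in KO (2 lower), against 30.2% (25.9%) and 31.4% (26.9%) of all genes.

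**Figure D5:**
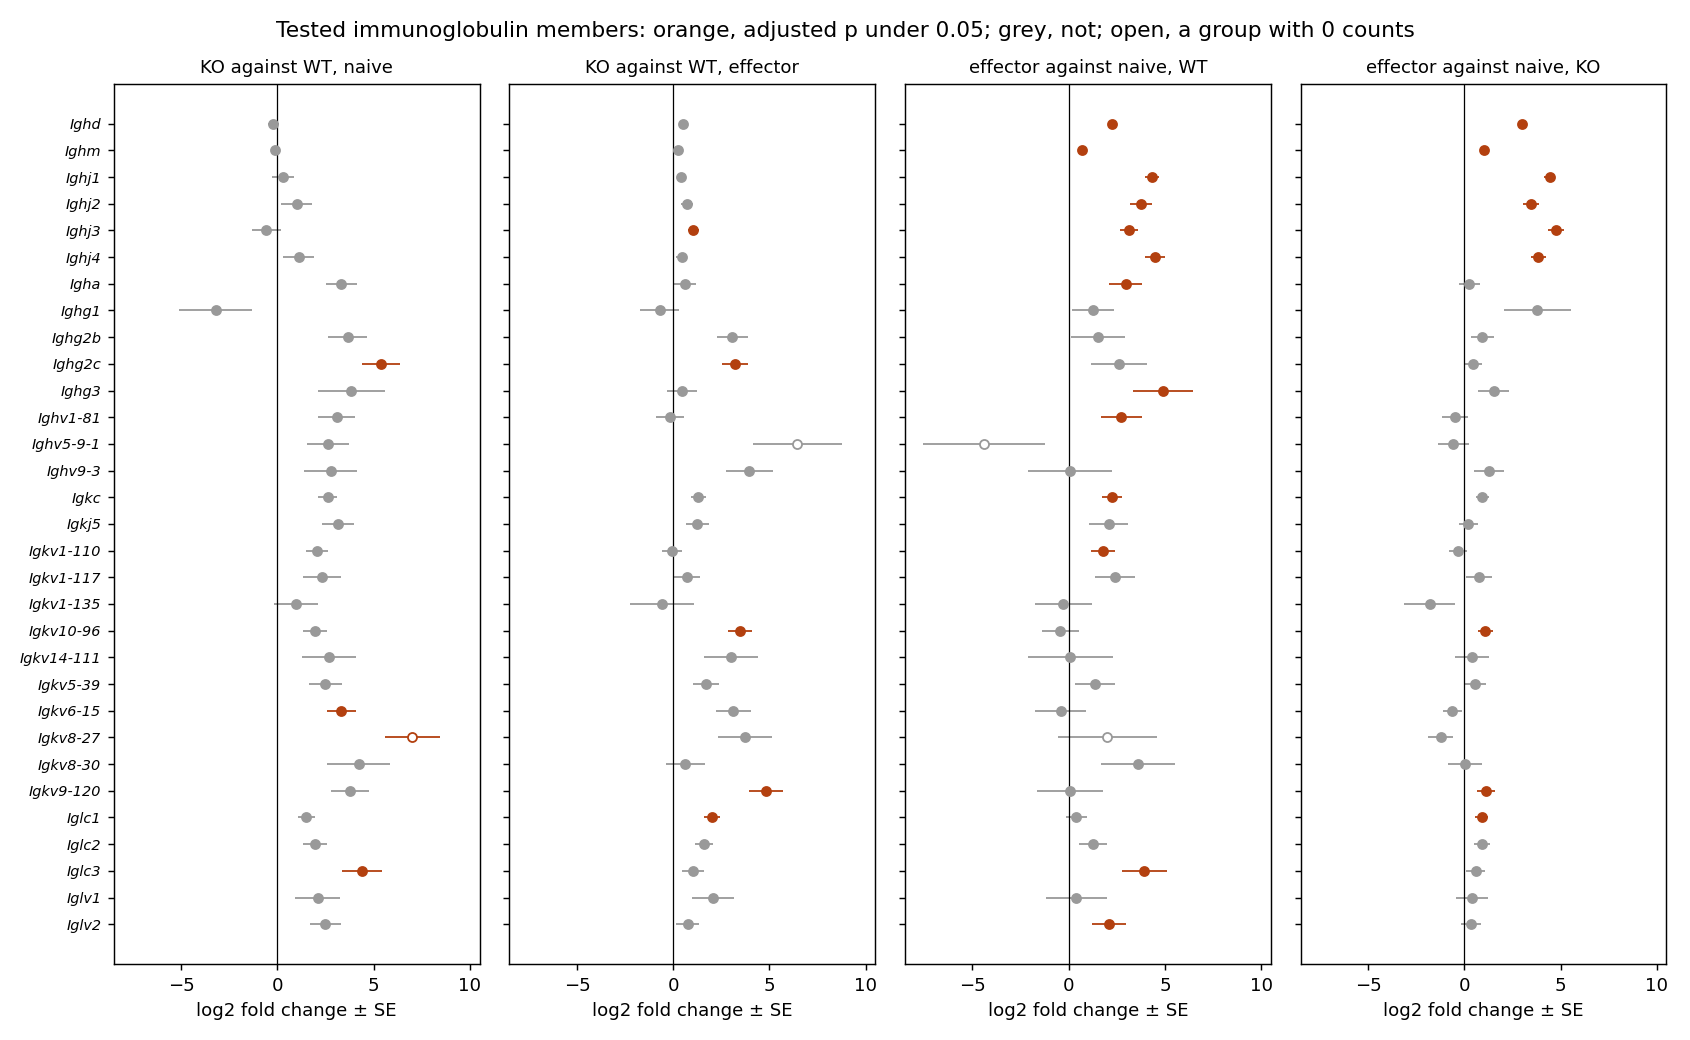
Log2 fold change ± SE of the 31 tested members in the 4 comparisons, orange where the adjusted p was under 0.05 and grey where not. Open symbols mark a comparison in which a group had 0 counts, whose fitted value is no estimate of size. The rows from Ighd to Ighj4 are to the right of 0 in both effector against naive panels. For KO against WT they lie on both sides of 0 in naive cells and to the right in effector cells. Igkc, the lambda genes and the IgG2 genes are to the right in all 4 panels.

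Genes of antibody-secreting cells and of B cells were measured beside the members. Jchain, which encodes the joining chain of secreted IgM and IgA, was at 0.789, 0.269 and 2.82 CPM in WT naive, 7.47, 4.85 and 3.84 in KO naive, 1.72, 2.91 and 3.26 in WT effector and 9.28, 5.06 and 6.45 in KO effector libraries. Its KO libraries were above its WT libraries in both cell types, as for Igkc, and library 3 was again the highest of the WT naive libraries. The differences of 2.27 ± 0.60 and 1.39 ± 0.52 did not pass (log2, edgeR adjusted p = 0.15 and 0.22), but passed without library 3 in naive cells (3.35, adjusted p = 0.016) and with only the effector groups fitted (adjusted p = 0.026). For each Jchain count there were 5.15 ± 1.61 (SD, n = 3) Igkc counts in WT naive, 5.94 ± 1.05 in KO naive, 9.17 ± 1.27 in WT effector and 8.81 ± 1.70 in KO effector libraries. These ratios overlapped between genotypes within each cell type.

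The plasma cell and secretion list of 12 genes as a whole did not separate the genotypes. Its summed level was 435 to 451 CPM in WT naive, 436 to 454 in KO naive, 615 to 632 in WT effector and 604 to 638 in KO effector libraries, most of it from Edem1 and Txndc5, which serve protein quality control and folding in the endoplasmic reticulum of many cell types. Of the 9 tested, 0 passed in naive cells and Txndc5 fell in KO effector cells by 0.21 on the log2 scale (adjusted p = 0.019). Of its defining genes, Mzb1 was at 0 in all 6 WT libraries and had 1 count each in KO libraries 7 and 11. The BCMA gene Tnfrsf17 was at 0 in WT naive libraries and had 1 count in WT effector library 4, against 2, 1 and 1 counts in KO naive and 3, 1 and 0 counts in KO effector libraries. Sdc1 (syndecan-1) had 3, 1 and 1 counts in WT naive and 3, 1 and 0 in KO naive libraries, and lay at 0.43 to 0.97 CPM in WT effector and 0.67 to 0.754 CPM in KO effector libraries.

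Few B cell markers passed between genotypes. Over the 10 tested, the median log2 difference was 0.78 in naive and 0.36 in effector cells, against 0 and 0.0022 over all tested genes. All 15 listed genes had counts in each group, with summed levels of 25.2 to 31.0 CPM in WT naive, 34.4 to 40.1 in KO naive, 54.1 to 61.3 in WT effector and 55.9 to 59.8 in KO effector libraries. The naive groups did not overlap, and Cd72, an inhibitory coreceptor that supplied 19.8 to 29.7 CPM of the naive sums, rose there by 0.37 ± 0.08 (log2, edgeR adjusted p = 0.024), the only one of 10 tested. Ms4a1 was also above WT in all 3 KO naive libraries, at 0.475 to 0.808 against 0.0526 to 0.215 CPM (adjusted p = 0.20). In effector cells Cd22, an inhibitory receptor, fell by 0.60 on the log2 scale (adjusted p = 0.035), and the libraries of Ms4a1 (0 to 1.19 against 0.696 to 1.17 CPM) overlapped. Cd79a was likewise above WT in all 3 KO naive libraries, at 1.33 to 1.45 against 0.912 to 1.07 CPM, and its effector libraries overlapped. It did not pass in either cell type (edgeR adjusted p = 0.56 in both). The part of other cells in the values of the members was not tested.

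The remaining lists gave few calls. Of 10 tested B cell receptor signalling genes, the kinase Lyn rose in KO naive cells (1.52 ± 0.35, adjusted p = 0.026) and the adaptor Dapp1 in KO effector cells (0.20 ± 0.05, adjusted p = 0.024). None of 9 tested class switch and hypermutation genes passed between genotypes. None of 7 tested Fc and immunoglobulin-binding receptors passed. Of these Fcgr2b reached 11.2 CPM in library 2 and 21.9 CPM in library 5, against 0.166 to 0.359 CPM in the other naive and 2.58 to 9.67 CPM in the other effector libraries. Rag1 and Rag2, the recombinase genes, had no count in any group. Myeloid markers, also listed, summed to 5.21 to 17.2 CPM in WT naive, 16.6 to 28.7 in KO naive, 5.77 to 28.997 in WT effector and 20.9 to 34.9 in KO effector libraries, and none of 9 tested passed between genotypes. Among them Lyz2, the lysozyme of macrophages and granulocytes, was at 0.316, 0.967 and 5.47 CPM in WT naive, 7.25, 11.5 and 8.04 in KO naive, 1.35, 3.66 and 14.1 in WT effector and 10.03 to 19.1 CPM in KO effector libraries, with libraries 3 and 6 the highest of their WT groups as for Igkc. Libraries 3 and 6 were also the highest of all for the haemoglobin gene Hba-a1, at 11.4 and 12.04 CPM, where the other 10 lay between 1.42 and 5.39 CPM. The part of myeloid and red blood cells in the values of the members was not tested.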

How the data were processed

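Poly(A) RNA of sorted CD4+ T cells was sequenced from libraries made with a stranded kit, per the labels' protocols. The authors deposited 2 tables of the same 12 libraries: raw counts, whole numbers per gene, and FPKM, which are scaled by gene length and depth, per the file headers. The submitters' processing notes name STAR, Picard, DESeq2 1.30.0, mm10 and GRCm38 without a role. No source used here states the counter, its strand setting or its handling of reads that match several genes. Such reads may have been lost or split among near-identical V segments and IgG genes.

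Columns were matched to groups by name. The counts were fitted in edgeR 4.0.16 (R 4.3.3) with 1 quasi-likelihood model over the 4 groups, after TMM scaling (factors 0.968 to 1.04) and a filter by group (filterByExpr) that left 15905 genes. Benjamini-Hochberg adjustment covered every gene tested, with a threshold of 0.05, and each standard error is the fold change divided by the root of F. All CPM use the TMM library sizes. FPKM served for levels compared between genes and, as log2(FPKM + 1) in limma 3.58.1, for an alternative test. A gene without counts in a group is given as a bound against 3 counts over that group, which covers counting error only. The model was also run on simulated counts, with changes set only in genes above a CPM minimum that most members do not reach. Its behaviour at the low counts of those members was not tested.

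The members and lists were chosen with earlier results of these data known. Named were all constant region members, the 5 V segments of each chain with the most counts, up to 5 called V segments per genotype comparison, any member called in the difference of the genotype effects, up to 4 called genes per list and comparison, and always Cd4, Cd3e, Ms4a1, Cd79a and Jchain. Some genes of the lists are not reported here. Other genes were named after their values were seen. All 93 members have the location of the table in GENCODE M21 (GRCm38), the source of the sequences. A planned search of promoters for the octamer motif was not run, since 0 of the 93 members matched the RefSeq promoter table used here. Alternatives were size factors of DESeq2 within edgeR, DESeq2 1.42.0 itself, limma-voom, FPKM, testing without the filter, fitting only the groups compared, leaving out each library, scaling by total counts, and members with 10 or 100 counts or more or without pseudogenes. An alternative that gave a gene no adjusted p is not counted among those run for it.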

Additional observations from a re-analysis of the deposited data

How the results depend on the processing

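The count of members passing between genotypes depended on the fit. In naive cells 4 passed, against 24 with no filter on low counts (all 93 tested), 1 in the FPKM values, 2 with only the naive groups fitted (12 tested), 1 among members with 100 counts or more, and 0 to 6 when a library was left out, with 0 without library 1 or 2. In effector cells 5 passed, against 25 with no filter, 3 with DESeq2, 3 with only the effector groups and 3 to 9 without a library (9 without library 3, 10 or 12, and 3 without library 6). For the difference of the genotype effects 0 passed, against 5 with no filter and 0 to 1 without a library (1 without library 4). From naive to effector cells 13 passed in WT, against 32 with no filter, 8 with only the WT groups and 10 to 19 without a library, and 9 in KO, against 31 with no filter and 11 to 17 without a library (17 without library 7). Leaving out a library, or the filter, changes which genes are tested: 39 to 48 members were tested without a library, where 31 were tested otherwise.

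Of 1370 alternative values for 78 gene and comparison pairs, 1219 kept direction and call, 99 lost a call, 43 gained one and 9 changed direction; none of these 9 had passed. Over all alternatives run for each pair, the range for KO against WT in naive cells was -0.40 to 0.071 for Ighd (above 0 without library 3). The ranges were -0.83 to 0.13 for Ighj3 (above 0 without library 2) and -0.37 to 0.65 for Ighj1 (below 0 without library 9). In effector cells the range was -1.34 to 1.78 for Ighg1 (above 0 without library 6). For effector against naive in WT they were -0.90 to 2.06 for Ighg2b and -1.21 to 1.83 for Ighg1 (both below 0 without library 6) and -0.13 to 1.06 for Iglc1 (below 0 without library 2), and in KO -0.14 to 0.56 for Igha (below 0 without library 10). With limma-voom, Ighg1 in effector cells was 0.26. Causes were not tested.

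Summed levels moved beyond 1 SD in 15 of 288 alternatives. Many of the 288 could not move. Leaving out 1 of 3 libraries always shifts their mean by less than 1 SD, and leaving out pseudogenes removes no member. The count of 15 is thus no measure of stability. With members of 100 counts or more, which drops most segments by construction, heavy V sums were 0.877 (KO naive), 0.731 (WT effector) and 0.648 CPM (KO effector), kappa V sums 4.84, 3.09 and 7.16 CPM in the same groups, the kappa J sum 0 CPM in each group, the lambda constant sum 1.01 CPM in WT effector and the lambda V sum 0.935 CPM in KO effector cells. With members of 10 counts or more the heavy V sum was 10.6 CPM in KO naive and the lambda V sum 0.415 CPM in WT naive cells. Scaled by total counts, the switched constant sum in KO naive cells was 25.0 CPM. Another scaling moved the median of all genes by under 0.01 (log2).

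No paired analysis was possible because the columns of the count table carry no replicate number that the labels share between groups. Depth limits the V and J segments most: 73 of 93 members had 20 to 99 counts in 12 libraries, WT naive values often rest on 0 to 10 counts, and a p that missed the threshold does not show equal levels.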
